A study of Mus musculus with 4 samples.

Results

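The potassium channel subunits are the 90 of 19465 features of the Visium-FFPE brain sections whose symbol is Kcn followed by letters and a number, with 1 feature of that form left out. The members were taken by a rule on the name and not by a measured value of each gene, although the set was chosen with earlier results of these data known. They comprise 14 subunits of the two-pore-domain (K2P) leak channels, 14 inward rectifiers (Kir), 10 electrically silent Kv subunits, 8 subunits of the ether-à-go-go (EAG) family, 8 Kv1 subunits, 5 Kv7 subunits, 4 Kv3 subunits, 3 Kv4 subunits, 2 Kv2 subunits, 4 small-conductance (SK) and related calcium-activated subunits, 1 pore-forming and 4 auxiliary subunits of the large-conductance (BK) channel, 4 Kv channel-interacting proteins (KChIP), 3 Kv beta subunits, 3 KCNE subunits, 2 sodium-activated subunits (Slack and Slick) and 1 sperm channel subunit (Slo3). All 90 lie in GENCODE vM21 (GRCm38) under the same Ensembl identifiers.

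The sections came from wild-type C57BL/6J offspring killed at postnatal day 21, male per the study's methods, and all 4 brains were fixed in formalin and embedded in paraffin before coronal sectioning. The mothers had received folic acid (FA) at 2 mg/kg (median folate, MF, 2 sections) or at 20 mg/kg (high folate, HF, 2 sections) from 2 weeks before mating until the end of lactation, so the pups themselves met the diets through their mothers. Each section is 1 replicate of its group, called biological in the study's methods, and the labels do not say which litter it came from. The p-values of HF against MF within 1 set of spots measure only the spread between these sections. The tests over areas and of region by diet fitted several areas or regions of the same 4 sections together. Their p-values also rest on the spread among those sums, which are not further animals. Pairs of probes were hybridised to the RNA and counted as unique molecular identifiers (UMIs) in spots that each cover several cells. The levels below are CPM, the UMIs of a gene over all UMIs of the same spots, scaled to 1000000 UMIs, and since each gene has its own probes they were compared between areas and diets and not between genes.

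Potassium channels let potassium leave the cell and so set the resting potential, end the action potential and space successive spikes. Kv channels open on depolarisation, and their silent, beta, KChIP and KCNE partners alter where and how the pore-forming subunits work without conducting on their own. BK and SK channels open with calcium, Kir channels hold the membrane near the potassium potential and, in astrocytes, take up potassium, and K2P channels carry the background leak. Neurons of different brain areas are known for different combinations of these subunits, which shape how they fire.

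Section totals lay between 34983708 and 90098381 UMIs, with MF replicate 1 the deepest. Of 13470 spots, 13452 had at least 500 UMIs and 250 genes and were kept. HF replicate 2 held 84 spots of a cluster led by Six3 and Pvalb and 34 medial habenula-like spots, where the other sections held 42 to 48 and 63 to 72. Marker lists of other cells or states moved with the diets over the whole section. The summed level of 12 oligodendrocyte genes was 26306 and 27473 CPM in the MF sections and 21796 and 23398 CPM in the HF sections, and 11 of the 12 were lower in both HF sections than in both MF sections. The 8 immediate early genes listed, which neurons switch on with activity, summed to 241 and 245 CPM in MF and 502 and 625 CPM in HF, with all 8 higher in both HF sections. Choroid plexus genes summed to 2491 and 2343 CPM in MF and 3483 and 3850.4 CPM in HF. In spots, fewer cells of a type and less RNA per cell cannot be told apart.

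Of the 90 subunits, 86 had at least 1 UMI in every section, and 13 had fewer than 100 UMIs over all 4 sections together. The rarest were Kcnk16 with 4 UMIs, Kcnk18 with 5, Kcnj1 with 6 and Kcne1 with 7. For a subunit without a UMI, 3 counts correspond to between 0.0333 CPM in MF replicate 1 and 0.0858 CPM in HF replicate 1. At the other end, Kcnab2, a Kv beta subunit that binds the inside of Kv1 channels, had 465 and 501 CPM in MF and 574 and 535 CPM in HF, and in MF replicate 1 it was found in 99.3% of spots.

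How strongly a subunit was patterned over the section was read first from the deposited Moran's I, which rises when neighbouring spots have similar levels and needs no areas. Over the subunits the median in the sections was 0.117 and 0.0710 for MF, and 0.0846 and 0.0773 for HF, against medians of 0.0166, 0.0113, 0.0146 and 0.0104 over all features of the same sections. Between 75.9% and 77.3% of the subunits lay above the median of all features. The highest mean belonged to Kcnc2, a Kv3 subunit of fast-firing neurons, at 0.451, 0.403, 0.387 and 0.332. Next came Kcnj10, the Kir subunit of astrocytes and oligodendrocytes, at 0.405, 0.340, 0.374 and 0.327. Of the 30 subunits with the highest mean, 26 scored highest in MF replicate 1, the deepest section, so sections were not compared by it.

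**Figure D1:**
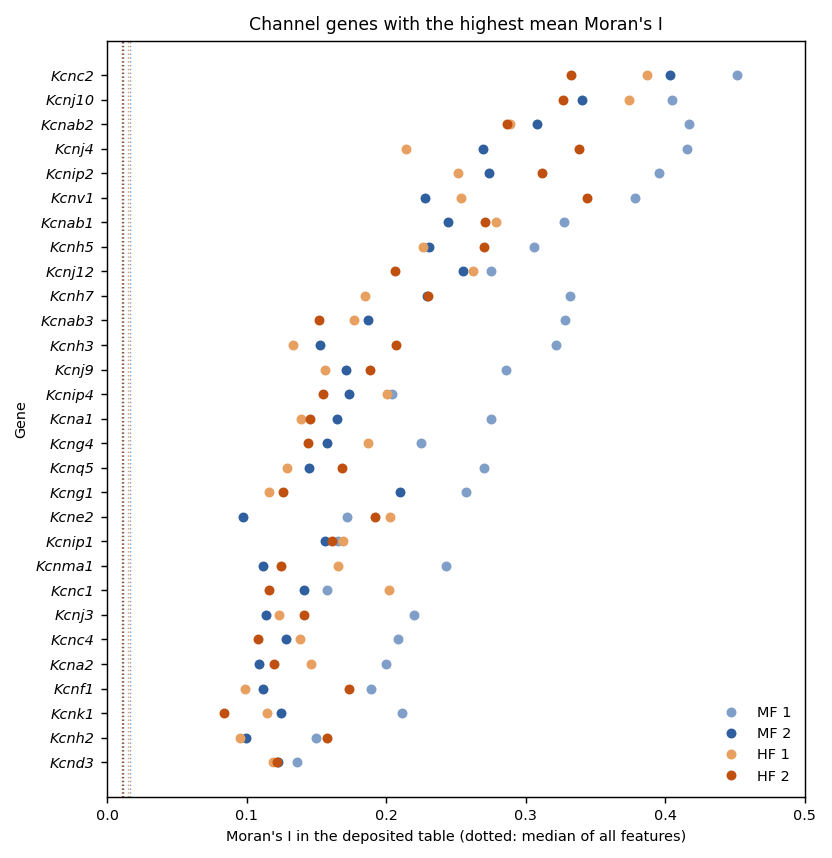
Moran's I of 29 subunits with high means (rows), one point per section on the horizontal axis, with dotted lines at the median of all features in each section. Kcnc2 and Kcnj10 lead, and MF replicate 1 lies furthest to the right for most of the genes.

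To ask which subunits mark which areas, spots were grouped by the remaining genes, with all subunits and their partner genes kept out of the grouping and out of the marker lists that name the groups. The 16 areas tested, each with at least 10 spots in every section, were cortical layers 1, 2/3, 4, 5 and 6 (L1 to L6), olfactory areas (OLF), CA1, CA2/3, dentate gyrus (DG) and matrix of the hippocampus, thalamus (TH), medial habenula (MH), hypothalamus (HY), striatum (STR), white matter (WM) and the cluster led by Six3 and Pvalb, which no marker list named. A further 1033 spots, 189 to 305 per section, lay in groups of cortex (302 spots) and hippocampus (457 and 274) that no list named. They were left out of the areas, so a mark is the highest of these 16 areas alone. They stayed in the cortex (CTX) and hippocampus (HP) sets compared between diets. The names stand for resemblance to marker profiles. L1 held 159, 131, 125 and 123 spots in MF replicates 1 and 2 and HF replicates 1 and 2. The meningeal cluster, which was joined to the cortex before its layers were split, held 161, 134, 128 and 125. Both were led by Ptgds and Eln, so L1 here stands for surface spots rich in meninges and not for cortical layer 1 alone. A subunit was said to mark an area when it was at least 2-fold higher there than the mean of the other areas (log2 ratio of 1), passed an adjusted p of 0.05 by the quasi-likelihood test of edgeR over all 12652 features tested, and had its highest CPM of all areas there in each of the 4 sections.

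In all, 29 subunits marked an area, 32.2% of all 90 and 41.4% of the 70 that passed the filter on low counts. Over all features tested, 19.8% marked an area. The filter keeps a gene that is high in 1 area alone, so the share among those that passed is a description and not support. The 29 were spread over 10 of the 16 areas. CA1 was marked by 5 subunits and by 2.07% of all features, L4 by 4 and 0.696%, TH by 4 and 1.41%, and the Six3/Pvalb-led cluster by 4 and 0.617%. Fewer marked the others, L2/3 with 3 subunits and 0.482% of features, HY with 3 and 1.36%, and DG with 2 and 2.01%. MH had 2 subunits and 2.51% of features, L5 had 1 and 0.182%, and STR had 1 and 0.743%. The areas with 0 subunits by edgeR held 3.49% (L1), 0.364% (L6), 0.111% (OLF), 0.814% (CA2/3), 0.0632% (matrix) and 2.84% (WM) of all features as marks. For 23 of the 29, every section lay above every section of the area with the next highest mean. By family, 6 of the 7 EAG subunits tested marked an area, as did 3 of 4 Kv3, 3 of 6 Kv1, 3 of 9 silent Kv, 4 of 11 Kir, 2 of 8 K2P, 2 of 3 Kv beta and 1 of 4 KChIP subunits. With spots thinned to 5000 UMIs the count was 24, and Kcnb2, Kcnd2, Kcnj12, Kcnj5, Kcnn2 and Kcns1 were among those that no longer marked their area. With a coarser grouping (Leiden resolution 0.5) the Six3/Pvalb-led cluster and MH were not found as areas of their own, and Kcnb2, Kcnj16 and Kcnk1 no longer marked theirs. The heatmap of marking subunits shows their levels over the areas.

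**Figure D2:**
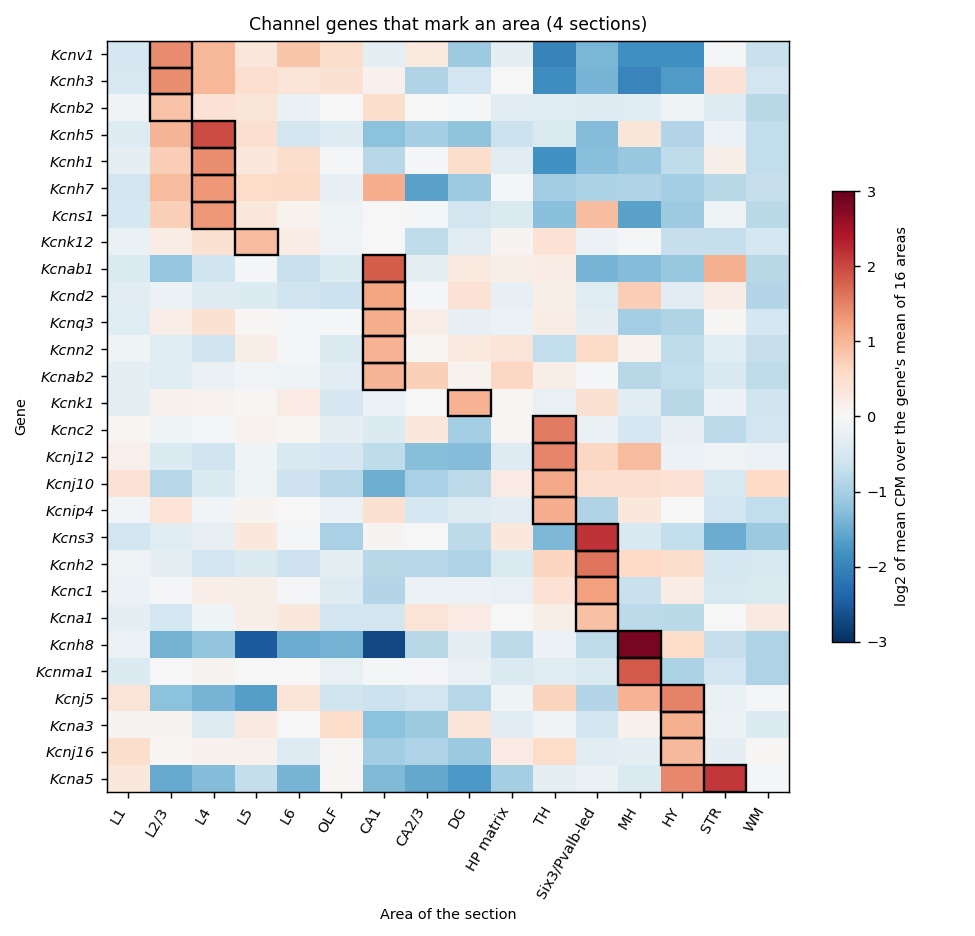
Mean level over 4 sections of 28 marking subunits (rows) in 16 areas (columns), as the log2 of the mean CPM plus 0.5 over the gene's mean of all areas, with the marked area boxed. Kcnh8 in MH (log2 ratio 3.95 in the test) is the strongest box, and several subunits that mark L2/3 are also above their mean in L4.

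Layer 4 was marked by 3 EAG subunits, voltage-gated channels named after the ether-à-go-go mutant fly. Kcnh5 had 356, 395, 449 and 400.1 CPM in L4 of MF replicates 1 and 2 and HF replicates 1 and 2, in that order, which is the order used from here on. In L2/3, the next area, it had 214, 195, 229.9 and 196 CPM, so L4 was higher in all 4 sections without overlap. The log2 ratio of L4 to the other areas was 2.49 ± 0.06 (SE, adjusted p 8.94e-51). Kcnh1, another EAG subunit, had 81.8, 92.3, 78.5 and 65.7 CPM in L4 and 50.5 ± 5.32 CPM (SD over 4 sections) in L2/3, a log2 ratio of 1.78 ± 0.09 (SE, adjusted p 1.04e-28). Kcnh7, which belongs to the ERG branch of the family, had 248, 282, 235 and 277 CPM in L4. CA1 came close to it with 223, 227, 213 and 244 CPM, and the 2 areas overlapped between sections, although L4 was ahead within each section (log2 ratio 1.73 ± 0.05, adjusted p 3.50e-41). The fourth was Kcns1, a silent subunit that works only with Kv2 partners, with 55.5, 62.2, 51.7 and 42.0 CPM in L4. It overlapped the Six3/Pvalb-led cluster, at 45.6, 35.3, 42.4 and 39.6 CPM (log2 ratio 1.67 ± 0.11, adjusted p 2.84e-23).

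The start sites of these 4 genes lie on chromosomes 12, 1, 2 and 2, and their promoters are shown because the 4 shared an area that the choice by name did not use. Each sequence runs from 250 bases before to 50 bases after the start (RefSeq, GRCm38.p6), on the strand of the gene. Capitals mark AGGTCA, the short site bound by nuclear receptors such as RORB, whose gene led the L4 group, or TGACCT, the same letters on the other strand.
Kcnh5, chr12:75177283-75177582, minus strand: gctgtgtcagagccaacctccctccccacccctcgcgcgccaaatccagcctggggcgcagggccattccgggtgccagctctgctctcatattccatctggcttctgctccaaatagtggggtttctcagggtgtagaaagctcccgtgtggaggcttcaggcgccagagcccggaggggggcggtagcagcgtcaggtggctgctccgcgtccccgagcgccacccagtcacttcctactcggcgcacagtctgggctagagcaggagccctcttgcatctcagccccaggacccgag
Kcnh1, chr1:192190527-192190826, plus strand: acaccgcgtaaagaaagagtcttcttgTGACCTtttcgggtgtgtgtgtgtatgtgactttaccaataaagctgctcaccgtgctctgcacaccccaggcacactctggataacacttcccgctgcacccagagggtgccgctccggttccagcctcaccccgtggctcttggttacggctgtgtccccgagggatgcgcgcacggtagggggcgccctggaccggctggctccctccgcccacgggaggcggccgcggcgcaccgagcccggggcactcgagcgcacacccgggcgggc
Kcnh7, chr2:63184238-63184537, minus strand: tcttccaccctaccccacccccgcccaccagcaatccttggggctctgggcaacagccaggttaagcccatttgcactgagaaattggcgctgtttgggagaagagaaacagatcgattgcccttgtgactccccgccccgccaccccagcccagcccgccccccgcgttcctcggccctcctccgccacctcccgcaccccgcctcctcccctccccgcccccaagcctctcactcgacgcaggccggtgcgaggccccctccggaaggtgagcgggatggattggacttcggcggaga
Kcns1, chr2:164171064-164171363, minus strand: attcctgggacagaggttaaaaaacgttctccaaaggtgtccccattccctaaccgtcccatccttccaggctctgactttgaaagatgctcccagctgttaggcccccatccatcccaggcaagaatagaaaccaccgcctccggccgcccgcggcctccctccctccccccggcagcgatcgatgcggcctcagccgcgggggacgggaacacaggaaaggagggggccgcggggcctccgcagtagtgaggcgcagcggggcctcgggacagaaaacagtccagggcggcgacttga
The letters occurred in the Kcnh1 window alone. They occurred in 16.3% of all 32851 promoters of that length and in 6 of the 90 windows listed for subunits, which stand for 65 of the genes, some with several starts. The 4 windows held 17, 27, 21 and 22 CG pairs, against a median of 7.0 over all promoters. A match is a description of the letters and not a site in use.

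In the upper cortex, L2/3 was marked by Kcnv1, Kcnh3 and Kcnb2. Kcnv1, a silent subunit that cannot form a channel alone and joins Kv2 pores, had 169.7, 188, 253 and 224 CPM there. L4 followed with 123, 135, 188 and 176 CPM, and the highest L4 value lay above the lowest of L2/3, although L2/3 was ahead within each section (log2 ratio 1.92 ± 0.07, adjusted p 6.58e-37). Kcnh3, an EAG-family subunit of forebrain neurons, had 117, 122, 118 and 154 CPM (log2 ratio 1.88 ± 0.08, adjusted p 2.36e-33). Kcnb2, a pore-forming Kv2 subunit, was weaker and just past the 2-fold rule, with 32.0, 34.5, 37.2 and 38.9 CPM in L2/3 and 28.0 ± 2.28 CPM in CA1 (log2 ratio 1.02 ± 0.10, adjusted p 1.23e-14). In L5 the only marking subunit was the K2P gene Kcnk12, at 53.4, 51.8, 56.0 and 59.3 CPM, with L4 at 39.2 ± 4.94 CPM (log2 ratio 1.14 ± 0.07, adjusted p 5.77e-25). No subunit marked L1, L6 or OLF.

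CA1 of the hippocampus was marked by more subunits than any other area, and they included a Kv4 pore, a Kv7 pore, an SK channel and the only Kv beta subunits that marked any area. Kcnab1, whose product speeds the inactivation of Kv1 channels, had 667, 753, 677 and 735 CPM in CA1. Its next area was STR with 418, 369, 423 and 492 CPM, lower in every section, and the log2 ratio of CA1 was 2.35 ± 0.07 (adjusted p 5.02e-45). Kcnd2, the Kv4 subunit that carries the dendritic A-type current of pyramidal cells, had 211, 240.3, 287 and 233 CPM in CA1 and 174, 146, 168 and 229 CPM in MH. The 2 areas overlapped between sections for Kcnd2, while CA1 was ahead within each one (log2 ratio 1.46 ± 0.09, adjusted p 2.17e-24). Kcnq3, a subunit of the channel behind the M-current, had 213, 216, 255 and 233 CPM (log2 ratio 1.39 ± 0.08, adjusted p 1.84e-24). The SK subunit Kcnn2 had 135, 131, 149 and 179.7 CPM in CA1, and Kcnab2 had 1033, 1150.3, 1207 and 1264 CPM there, with CA2/3 close at 949 ± 69.5 CPM (log2 ratio 1.32 ± 0.05, adjusted p 1.22e-38).

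In the dentate gyrus, Kcnk1, a weakly conducting K2P subunit, had 319.6, 354, 349 and 355 CPM in DG, above the Six3/Pvalb-led cluster at 231 ± 32.7 CPM in every section (log2 ratio 1.10 ± 0.05, adjusted p 4.09e-32). CA2/3 and the matrix had no marking subunit.

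The thalamus was marked by a Kv3 pore, Kir subunits and a KChIP. Kcnc2, one of the Kv3 pores that let neurons fire fast, had 561, 642, 612 and 549 CPM in TH. The next area, CA2/3, had 238, 259, 258 and 248 CPM, far lower in each section, and the log2 ratio of TH was 1.80 ± 0.04 (adjusted p 2.05e-52). Kcnj12, a strongly rectifying Kir subunit, had 137, 147, 151 and 153 CPM in TH and 103 ± 6.33 CPM in MH (log2 ratio 1.77 ± 0.05, adjusted p 5.81e-43). Kcnj10 had 409, 453, 462 and 411 CPM in TH, and WM was next at 301, 324, 267 and 304 CPM (log2 ratio 1.37 ± 0.03, adjusted p 1.32e-48). Kcnip4, a calcium-binding partner of Kv4 channels, had 164, 161, 181 and 174 CPM (log2 ratio 1.24 ± 0.04, adjusted p 4.34e-45). These 4 were higher in TH than in the next area in all 4 sections without overlap.

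The cluster led by Six3 and Pvalb had the highest summed level of 7 genes of Pvalb and Sst interneurons, between 4241 and 5173 CPM. Their sum lay between 1739 and 2192 CPM in STR, the next highest area, and between 381 and 554 CPM in TH. The cluster also held 55342 to 69917 CPM of the 12 oligodendrocyte genes, and the part of either cell type in its channel levels was not tested. Kcns3, a silent partner of Kv2 channels, had 40.4, 57.2, 71.5 and 21.1 CPM in this cluster, with a wide spread and its lowest value in HF replicate 2, the section with most of these spots. L5, the next area, had 12.8 ± 4.23 CPM (log2 ratio 2.60 ± 0.18, adjusted p 5.82e-21). Kcnh2, the ERG channel known from the heart's long QT syndrome, had 134, 133, 209 and 147 CPM (log2 ratio 1.83 ± 0.09, adjusted p 4.10e-29). Kcnc1, a Kv3 pore of fast-spiking interneurons, had 342, 355, 495 and 312 CPM, with TH at 215 ± 17.4 CPM (log2 ratio 1.35 ± 0.07, adjusted p 9.48e-30). The Kv1 subunit of axons, Kcna1, had 245, 244, 180.0 and 192 CPM, just past the 2-fold rule (log2 ratio 1.03 ± 0.07, adjusted p 1.26e-22).

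The medial habenula held the largest log2 ratio among the 29. Kcnh8, an EAG-family subunit, had 27.8, 41.5, 35.9 and 34.5 CPM in MH and 6.93, 6.42, 6.27 and 7.45 CPM in HY, the next area. It was thus 5.16 times as high in MH as in HY on the means, with a log2 ratio to all other areas of 3.95 ± 0.19 (adjusted p 5.95e-30). Kcnma1, the pore of the BK channel that opens with calcium and depolarisation together, had 705, 778, 831 and 909 CPM in MH and 246, 232, 237 and 237 CPM in L4 (log2 ratio 1.98 ± 0.04, adjusted p 1.40e-54). In the maps, Kcnma1 forms a small patch at the midline in each section. Choroid plexus genes summed to between 6752 and 13960.0 CPM in the MH-like spots, which lie beside the ventricle.

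**Figure D3:**
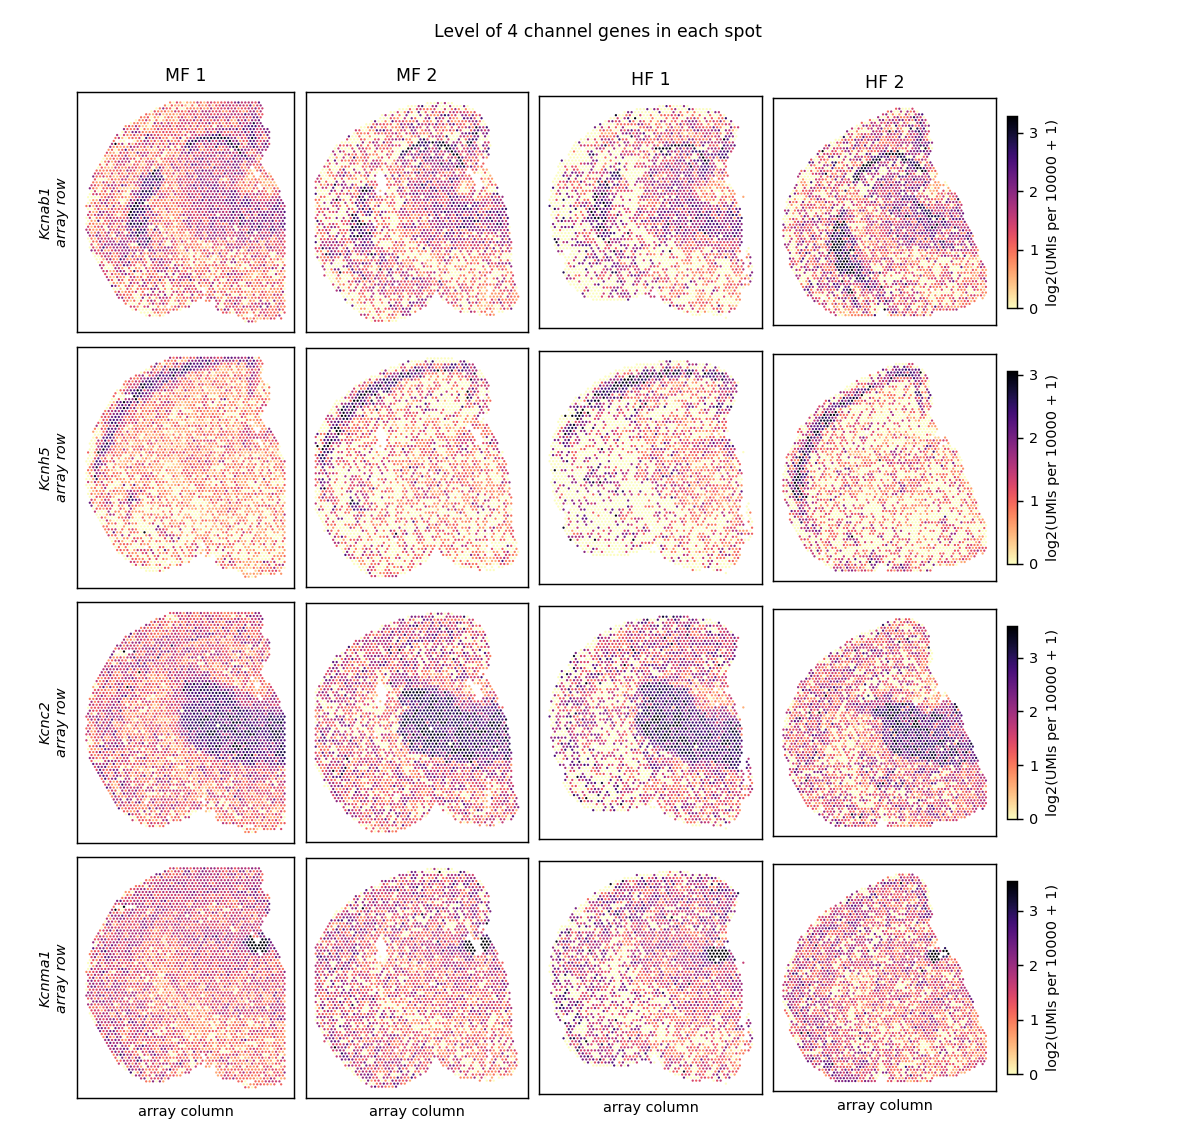
Level of Kcnab1, Kcnh5, Kcnc2 and Kcnma1 (rows) in every spot of the 4 sections (columns) by array column and row, as log2(UMIs per 10000 + 1). Kcnab1 follows the CA1 layer and the striatum, Kcnh5 a band in the cortex, Kcnc2 the thalamus and Kcnma1 a patch at the midline, in all 4 sections.

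Kcnj5, Kcna3 and Kcnj16 marked the hypothalamus, and Kcna5 the striatum. Kcnj5, a G protein-gated Kir subunit, had 9.09 ± 1.64 CPM (SD over 4 sections) in HY, from 303 UMIs in all, and overlapped MH at 3.43, 7.04, 7.59 and 8.29 CPM (log2 ratio 1.94 ± 0.17, adjusted p 4.61e-17). Kcna3, a Kv1 subunit, had 65.9, 73.5, 91.9 and 65.4 CPM in HY and 51.3 ± 5.64 CPM in OLF (log2 ratio 1.11 ± 0.06, adjusted p 1.49e-28). Kcnj16, which forms mixed channels with Kcnj10, had 29.6, 30.6, 33.2 and 27.4 CPM in HY and 22.4 ± 2.06 CPM in TH (log2 ratio 1.02 ± 0.08, adjusted p 2.90e-19). Kcna5, another Kv1 subunit, had 18.4, 16.3, 23.7 and 22.4 CPM in STR from 160 UMIs, and 13.1, 15.2, 13.5 and 7.45 CPM in HY (log2 ratio 2.91 ± 0.20, adjusted p 3.37e-21). In each of the 4 the area named was the highest in every section, for Kcnj5 with overlap between sections.

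A further 24 tested subunits reached a log2 ratio of 1 in some area without meeting the rest of the rule. The largest of these, singled out after their values were seen, were Kcng4 in the Six3/Pvalb-led cluster (log2 ratio 3.27), Kcne2 in MH (3.01), Kcng2 in CA2/3 (2.98), Kcnip1 in MH (2.42), Kcnh4 in L2/3 (2.37), Kcnmb1 in L1 (2.32), Kcnab3 in L4 (1.97), Kcng1 in OLF (1.95) and Kcnk13 in WM (1.54). Kcnip1 and Kcnmb1 overlap on chromosome 11 (33629339 to 33993152 and 33963013 to 33973641), and whether their probes share bases was not tested.

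Choroid plexus and ependyma had 8 to 13 spots per section and were below the spot minimum of the area test. Kcne2, a KCNE subunit of secretory epithelia, had 167, 217, 206 and 251 CPM in the choroid plexus-like spots, from 310 of its 627 UMIs. With areas of at least 5 spots admitted, a setting chosen after seeing the data, Kcne2 marked choroid plexus with a log2 ratio of 7.23 ± 0.19 (adjusted p 3.32e-52). In the same setting Kcnk1 no longer marked DG, since it had 274, 368, 270.0 and 263 CPM in choroid plexus and the value of MF replicate 2 was above the 354 CPM of DG in that section. Kcnj16 and Kcnj5 no longer marked HY in this setting either. In ependyma Kcnj16 had 27.9, 39.4, 41.9 and 0.0 CPM from 22 UMIs and Kcnj5 had 4 UMIs in all. There Kcnj16 was above HY in MF replicate 2 and HF replicate 1, and Kcnj5 in HF replicate 2.

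Neighbouring genes of 1 family were compared over the 16 areas by the Pearson r of their mean log2 levels, which is a description, in the 5 pairs with both genes tested. On chromosome 6, Kcna5 (126532551 to 126535412) marked STR and Kcna1 (126640397 to 126646384) the Six3/Pvalb-led cluster, with an r of -0.22, and Kcna1 with Kcna6, 61944 bases away, had 0.23. On chromosome 3, Kcna3, a mark of HY, and Kcna2 lie 63075 bases apart and had an r of -0.02. The Kir genes Kcnj9 and Kcnj10 on chromosome 1 lie 11891 bases apart, with an r of 0.10, and Kcnj16 and Kcnj2 on chromosome 11 lie 38195 bases apart, with an r of -0.31.

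Subunits known to assemble with each other were more alike in some cases than in others. These correlations across 16 areas are a description too, since the areas share sections, neighbours and marker-based borders, and the median over all 2415 pairs of tested subunits was 0.06. The G protein-gated pair Kcnj3 and Kcnj6 had an r of 0.85 and Kcnj10 with Kcnj16 had 0.67. Kcnd2 with Kcnip4 had 0.41 and with Kcnip2 0.25, and Kcnma1 with its brain beta subunit Kcnmb4 had 0.28. Kcna2 with Kcnab2 had -0.12.

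The diets were compared to see whether FA excess in the mothers went with a change of the subunits in the offspring brain. Over the whole section 0 subunits were called, at an adjusted p under 0.05 and a 1.2-fold change by the quasi-likelihood test of edgeR. Of all 14971 features tested there, 0.0% were called, and DESeq2 called 0 subunits too, with 0.147% of all features. Of the 79 subunits tested, 10 had an unadjusted p under 0.05, 6 higher and 4 lower in HF, or 12.7%, against 6.81% of all features. The median log2 fold change of the 79 was 0.03, with 0.00 over all features, and 47 were higher and 32 lower in HF. The HF and MF sections did not overlap for 28 of the 79 (35.4%), 19 with HF above and 9 with HF below, beside 39.6% of all features. By family the median log2 fold change over the whole section lay at 0.09 for 12 Kir, 0.01 for 8 EAG, 0.00 for 10 K2P, 0.03 for 9 silent Kv, 0.12 for 3 BK beta and 0.22 for 4 SK-family subunits. All 4 SK-family values were above 0, but 1 of the 4 had an unadjusted p under 0.05 (Kcnn2), and Kcnn1 overlapped between the diets. The calls depended on single HF sections. Without HF replicate 1, 7 of 82 subunits were called (8.54%, beside 7.68% of all features), and without HF replicate 2, 3 of 81 (3.7%, beside 5.55%).

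Within the 6 regions and 8 subregions the count was 0 as well. Of all features, 0.0581% were called in CTX, 0.0476% in HP, 0.0% in TH, 0.0% in HY, 0.053% in STR and 0.00841% in VS, the ventricular region that joins medial habenula, choroid plexus and ependyma. In the subregions the shares were 0.00848% in L1, 0.347% in L2/3, 0.0628% in L4-6, 0.128% in OLF, 0.0473% in CA1, 0.0738% in CA2/3, 0.0674% in DG and 0.0575% in the matrix. In at least 1 region 0.113% of all features were called, and in at least 1 subregion 0.341%. DESeq2 called 1 subunit in the regions and 1 in the subregions, Kcnv1 in both cases, beside 0.269% and 0.232% of all features. In at least 1 region 24 of 76 subunits were called without HF replicate 1 (31.6%, beside 16.9% of all features) and 11 of 76 without HF replicate 2 (14.5%, beside 9.8%). In at least 1 subregion it was 6 of 75 (8.0%, beside 5.4%) and 4 of 74 (5.41%, beside 4.3%).

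At an unadjusted p under 0.05, the subunits were set beside all features of the same spots. In CTX 9 of 76 subunits passed (11.8%, beside 6.64% of all features), in HP 9 of 67 (13.4%, beside 7.28%) and in TH 8 of 75 (10.7%, beside 7.01%). The shares were closer in HY with 4 of 73 (5.48%, beside 6.37%), STR with 5 of 64 (7.81%, beside 6.8%) and VS with 3 of 66 (4.55%, beside 7.54%). Among the cortical subregions the count was 9 of 65 in L2/3 (13.8%, beside 7.47%), 9 of 72 in L4-6 (12.5%, beside 7.09%), 6 of 66 in OLF (9.09%, beside 6.46%) and 1 of 66 in L1 (1.52%, beside 5.16%). In the hippocampus it was 2 of 50 in CA1 (4.0%, beside 5.5%), 3 of 57 in CA2/3 (5.26%, beside 5.43%), 3 of 59 in DG (5.08%, beside 5.82%) and 4 of 60 in the matrix (6.67%, beside 5.37%). Both directions occurred among these subunits in most sets, with 6 higher and 3 lower in CTX and in HP, and 5 higher and 4 lower in L2/3 and in L4-6. The plot of all fold changes shows the subunits centred near 0 in every set of spots.

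**Figure D4:**
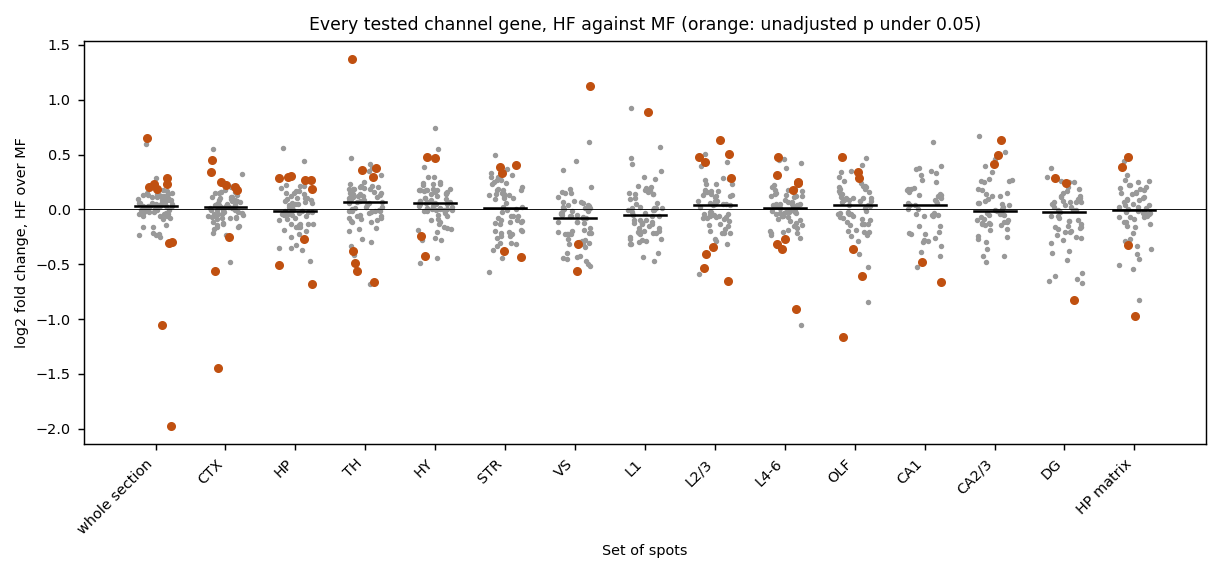
Log2 fold change of HF over MF (vertical axis) for each subunit tested, in the whole section, 6 regions and 8 subregions (horizontal axis), with orange points at an unadjusted p under 0.05 and a bar at the median. No point passed the adjusted threshold, and the medians lie between -0.08 (VS) and 0.07 (TH).

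Kcnv1 came closest to a call. In CTX it had 107 and 113 CPM in the MF sections and 153 and 147 CPM in the HF sections. Both HF sections lay above both MF sections there, with a log2 fold change of 0.45 ± 0.08 (SE, adjusted p 0.185). In L4-6 it had 109 and 107 CPM in MF and 155 and 143 CPM in HF, a log2 fold change of 0.47 ± 0.09 with an adjusted p of 0.0883, the smallest of any subunit in any set. The same order held in L2/3 (0.43 ± 0.11, adjusted p 0.140) and in OLF, with 88.9 and 97.8 CPM in MF and 135 and 126 CPM in HF (0.48 ± 0.13, adjusted p 0.390). Over the whole section it had 59.4 and 57.2 CPM in MF and 70.3 and 72.6 CPM in HF (0.28 ± 0.07, adjusted p 0.696). STR and CA1 also had both HF sections above both MF sections. In HP, L1, CA2/3 and the matrix the sections overlapped with higher HF means, and in TH, HY, VS and DG they overlapped with log2 fold changes between -0.05 and 0.07.

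By DESeq2 the adjusted p of Kcnv1 was 0.0123 in CTX and 0.0495 in L4-6, so the call changed with the tool, and the fold changes were again 0.45 and 0.47. EdgeR called Kcnv1 in both without HF replicate 1 (log2 fold change 0.43 and 0.42) and without HF replicate 2 (0.46 and 0.53). Calls over all features rose as well in these fits. With no filter on low counts the adjusted p by edgeR were 6.42e-04 and 5.04e-04. There the calls over all features rose from 8 to 138 in CTX and from 8 to 80 in L4-6. Kcnv1 also passed in L2/3 with no filter (adjusted p 0.0390), where these calls rose from 39 to 71. Without HF replicate 2 it passed in L2/3 and OLF, with a log2 fold change of 0.53 in each. Without HF replicate 1 it passed over the whole section (0.32), in L1 (0.65) and in TH. In TH the direction was the other one, with a log2 fold change of -0.66. Over the alternatives run, its log2 fold change lay between 0.41 and 0.48 in CTX and between 0.42 and 0.53 in L4-6. In the same CTX spots the 8 immediate early genes summed to 299 and 303 CPM in MF and to 825 and 919 CPM in HF, and all 12 oligodendrocyte genes were lower in both HF sections, with sums of 13758 and 13020.1 CPM in MF and 11214 and 10537 CPM in HF. Their part in the Kcnv1 result was not tested.

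Kcnf1, another silent partner of Kv2 pores, had the smallest p in L2/3. It had 93.7 and 115 CPM in MF and 145 and 144 CPM in HF, so the HF sections were nearly equal and both were above MF (log2 fold change 0.51 ± 0.13, adjusted p 0.114). Kcnf1 was called by edgeR with no filter on low counts (adjusted p 0.0228) and at Leiden resolution 0.5 (0.0440). Calls over all features there were 71 and 52, from 39. It was also called without HF replicate 1 (log2 fold change 0.51), where calls over all features rose as well. In L2/3 the immediate early genes summed to 338 and 334 CPM in MF and 1019 and 1094 CPM in HF, and the oligodendrocyte genes to 8101 and 8362 CPM in MF and 5641 and 4772 CPM in HF. Their part in the Kcnf1 result was not tested.

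Kcne2 was the leading subunit of VS. It had 31.8 and 32.8 CPM in the MF sections and 48.3 and 94.2 CPM in the HF sections, and HF replicate 2 was far above the other HF section (log2 fold change 1.13 ± 0.27, adjusted p 0.201). Kcne2 was called there by edgeR with no filter on low counts (adjusted p 7.86e-06) and without HF replicate 1 (adjusted p 1.59e-13). The choroid plexus genes of the same spots summed to 31847 and 34326 CPM in MF and to 46831 and 87511 CPM in HF, in the same order as Kcne2. Within the choroid plexus-like spots alone Kcne2 had 167 and 217 CPM in MF and 206 and 251 CPM in HF, which overlap. The part of choroid plexus RNA in the VS result was not tested. Over the whole section Kcne2 had 2.54 and 2.31 CPM in MF and 3.63 and 4.07 CPM in HF (log2 fold change 0.65 ± 0.16, adjusted p 0.696), and it was called without HF replicate 1 (0.74, adjusted p 0.0218).

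The remaining regions were led by 4 subunits, in which both sections of 1 diet lay above both of the other. In TH, Kcnab3, a Kv beta subunit, had 48.7 and 43.7 CPM in MF and 33.0 and 33.4 CPM in HF (log2 fold change -0.49 ± 0.11, adjusted p 0.621). In HY, Kcnn2 had 36.8 and 33.7 CPM in MF and 52.2 and 46.1 CPM in HF (0.46 ± 0.12, adjusted p 0.781). Kcnc1 in STR was lower in HF, at 126 and 135 CPM in MF and 91.2 and 99.0 CPM in HF (-0.43 ± 0.14, adjusted p 0.589). Kcnj3, a G protein-gated Kir subunit, had 158 and 159.9 CPM in HP of MF and 184 and 198 CPM in HF (0.27 ± 0.09, adjusted p 0.606). With all 4 sections none of these passed the adjusted threshold by edgeR. With 1 HF section left out, edgeR called Kcnab3 in TH (adjusted p 0.0282 without HF replicate 1 and 0.00598 without HF replicate 2), Kcnn2 in HY without HF replicate 2 (0.0109) and Kcnj3 in HP without HF replicate 1 (0.0142). Calls over all features rose as well, to 704 and 1096 features in TH, 458 in HY and 478 in HP, from 0, 0 and 6.

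The marker lists moved in these regions too. Of the 12 oligodendrocyte genes, 11 in TH, 12 in HP, 7 in HY and 2 in STR were lower in both HF sections. Their sums were 28635 and 30292 CPM in MF and 23804 and 24224 CPM in HF in TH, and 15816 and 15733 CPM in MF and 11689 and 11023 CPM in HF in HP. Of the 8 immediate early genes, 7 in HP, 6 in HY, 6 in STR and 5 in TH were higher in both HF sections. In HP they summed to 401 and 420.0 CPM in MF and 771 and 944 CPM in HF. The MF and HF sums were 131 and 146 CPM against 274 and 251 CPM in TH, 135 and 153 CPM against 240.4 and 313 CPM in HY, and 376 and 453 CPM against 808 and 864 CPM in STR. The make-up of the spots differed as well. With TH clustered again, a group named relay thalamus held 106 and 84 spots in MF and 12 and 53 in HF. Another held 110 and 88 against 57 and 68, and an unnamed group 81 and 94 against 141 and 97. In HP, the unnamed groups had median depths of 0.441 and 0.285 of their section's median. They held 52 and 132 spots in MF against 145 and 128 in HF, and 62 and 52 against 100 and 60. The part of these lists and groups in the results of the 4 subunits was not tested.

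In the hippocampal subregions and L1, the subunits with the smallest p had fewer counts and larger errors. Kcna1 in CA1 had 98.5 and 90.8 CPM in MF and 76.8 and 50.6 CPM in HF (log2 fold change -0.66 ± 0.23, adjusted p 0.669), and it turned to 0.28 when spots were thinned to 5000 UMIs. Kcnmb4 in CA2/3 had 86.3 and 75.2 CPM in MF and 107 and 111 CPM in HF (0.41 ± 0.16, adjusted p 0.798). Kcnj12 in DG had 32.0 and 21.2 CPM in MF and 19.3 and 12.7 CPM in HF (-0.83 ± 0.32, adjusted p 0.709). The Kv1 subunit Kcna6 in the matrix and the K2P subunit Kcnk13 in L1 were higher in both HF sections, by 0.39 ± 0.16 and 0.89 ± 0.37 on the log2 scale, with adjusted p of 0.884 and 0.907. In CA1, 9 of the 12 oligodendrocyte genes were lower in both HF sections, and the immediate early genes summed to 806 and 846 CPM in MF and 1465 and 2179 CPM in HF. Of the oligodendrocyte genes 11 in CA2/3, 10 in DG, 12 in the matrix and 5 in L1 were lower in both HF sections, and of the 8 immediate early genes 7, 5, 7 and 6 were higher. Their part was not tested.

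The smallest p of the whole section belonged to Kcna10, a rare Kv1 subunit. It had 48 and 20 UMIs in the MF sections and 3 and 7 UMIs in the HF sections, which is 0.533, 0.471, 0.0858 and 0.165 CPM. Both HF sections were below both MF sections, with a log2 fold change of -1.97 ± 0.41 and an adjusted p of 0.696. It was called without HF replicate 2 (-2.57, adjusted p 0.0383 by edgeR). So few counts allow no reading by area.

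**Figure D5:**
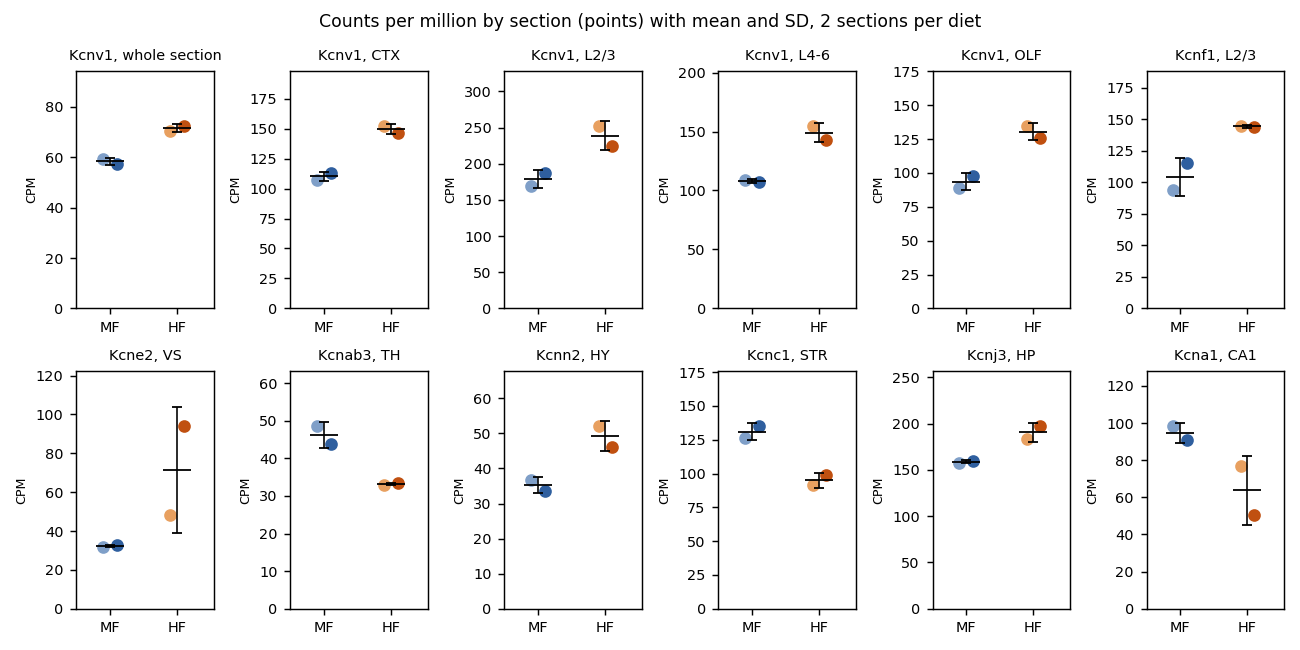
CPM of the subunits with the smallest p in each region (panels), with 1 point per section, MF in blue and HF in orange, and the mean with its SD. The diets do not overlap in these panels, which were chosen for their small p, and the 2 HF sections lie far apart for Kcne2 in VS and Kcna1 in CA1.

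The study's own tables of regions and subregions list 20 of the subunits, and since that list was made from these sections it is not independent evidence of a direction. The study compared the diets by a Wilcoxon test over the spots of each region or subregion. The values below are sums over the whole section, which is another comparison and no repeat of that test. Over the whole section 6 of the 20 were higher and 14 lower in HF, 5 had an unadjusted p under 0.05 and 0 were called by edgeR or DESeq2. Both HF sections lay above both MF sections for 3 of them and below for 6. Kcns1, the silent subunit of L4, had 19.0 and 18.2 CPM in MF and 14.8 and 15.5 CPM in HF (log2 fold change -0.31 ± 0.09, adjusted p 0.696). Kcng3, another silent subunit, had 16.1 and 18.6 CPM in MF and 13.7 and 14.8 CPM in HF (-0.29 ± 0.11, adjusted p 0.716). Kcnab2 was higher in both HF sections, by 0.19 ± 0.08 on the log2 scale (adjusted p 0.721). Kcnt2, the sodium-activated Slick subunit, had low values, 1.66 ± 0.310 CPM (SD over 2 sections) in MF and 0.836 ± 0.516 CPM in HF, and both HF sections were below both MF sections (-1.05 ± 0.41, adjusted p 0.709). Without HF replicate 2 edgeR called Kcns1 and Kcnj2, with log2 fold changes of -0.36 and -0.40. Without HF replicate 1 it called Kcnt2, Kcns2 and Kcnv1, at -1.85, -0.38 and 0.32. Of the 20, 10 were area marks. Both HF sections were above both MF sections for Kcnab2 and Kcnv1 and below for Kcna1 and Kcns1, and the diets overlapped for the other 6, Kcnc2, Kcnh1, Kcnh3, Kcnh5, Kcnip4 and Kcnj10. The log2 fold changes of Kcnh5, Kcnc2 and Kcnj10 were 0.05 ± 0.08, -0.03 ± 0.15 and -0.01 ± 0.12, and the sign of each changed when 1 section was left out.

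A difference between regions in the diet effect was tested with 1 model over CTX, HP, TH, HY and STR. No subunit of the 75 tested was called by edgeR, against 0.0214% of all 14046 features (3 features). At an unadjusted p under 0.05 there were 11 of the 75 subunits, a larger share than the 843 of 14046 features (6.0%). The smallest p was that of Kcnh3, whose fitted log2 fold changes spanned 0.95 between regions (adjusted p 0.491). Without HF replicate 1 the count was 4 (5.33%, beside 2.44% of all features), and without HF replicate 2 it was 1 (1.32%, beside 0.392%).

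Beside the pore and auxiliary subunits, 3 lists of genes that work with them were read in the same way. None of the 4 HCN channels, the cation channels of the same superfamily that open on hyperpolarisation, was called in any comparison of diets, and over the whole section 2 were higher and 2 lower in HF. Of 18 tested genes for other auxiliary proteins, 10 were higher and 8 lower with 0 called, and of 10 genes of the sodium-potassium pump and the cation-chloride cotransporters 5 were higher and 5 lower with 0 called by edgeR. At an unadjusted p under 0.05 there was 1 gene, among the auxiliary proteins. By area, 3 of the auxiliary genes and 4 of the transport genes were marks. Lrrc55, an auxiliary subunit of BK channels, marked MH as Kcnma1 did (log2 ratio 4.10 ± 0.07, adjusted p 1.64e-58). Lrrc38, of the same family, marked the Six3/Pvalb-led cluster (3.35 ± 0.20, adjusted p 5.18e-25), and Abcc8, the sulfonylurea receptor of potassium channels gated by ATP, marked DG (1.41 ± 0.10, adjusted p 1.40e-20).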

How the data were processed

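Coronal brain sections of 2 MF and 2 HF offspring were profiled by Visium-FFPE, with probe pairs against the mouse transcriptome. The authors aligned the reads to mm10 and made the deposited UMI counts per spot with Space Ranger, 1 table per section. The deposited tables also hold Moran's I, a score per feature, which was read as given, and p-values and a normalized signal, per the file headers, which were not used. Seurat, named in the submitters' notes, was used by the authors downstream and not here.

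Spots with under 500 UMIs or 250 genes were left out (18 of 13470). They were clustered (2000 variable genes, 30 principal components, 20 neighbours, Leiden resolution 1; leidenalg 0.10.2, scikit-learn 1.9.0), with 127 features kept out by name, and clusters were named from marker lists. Of the array positions, 2474 were under tissue in all 4 sections, since the arrays share their barcodes. Counts were summed per section and area and fitted with edgeR 4.0.16 (R 4.3.3), TMM and filterByExpr, with Benjamini-Hochberg adjustment over all features tested. DESeq2 1.42.0 was the other tool. The fits were tested on simulated data. The subunits, lists and tests were chosen with earlier results of these data known. Named were up to 3 marking subunits per area with the largest ratio, the 3 with the smallest p over the whole section and 1 per region and subregion, those the study's tables list, and their partners.

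Alternatives were DESeq2, a replicate block, library size alone, no filter, spots thinned to 5000 UMIs, Leiden resolution 0.5, and leaving out each section. Floors cover counting error only. Coordinates are of GRCm38. Results of some subunits are not reported here, though the counts include them.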

Additional observations from a re-analysis of the deposited data

How the results depend on the processing

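The count of marking subunits was 24 to 36 under the alternatives run, against 29, and the pairs of subunit and area shared with those 29 numbered 20 at Leiden resolution 0.5, 22 with thinned spots and 26 to 29 under the others. Of the values of named subunits over areas, 223 were on the same side of the threshold and 11 were weaker. Of those for the diet, 317 were the same, 31 passed the threshold that the edgeR fit missed, and 21 changed sign. The count of subunits called between the diets moved from 0. In the 6 regions it was 1 by DESeq2 (Kcnv1), 4 with no filter on low counts, and 0 to 24 when 1 section was left out, beside 0.269%, 1.92% and 0.189% to 16.9% of all features. In the 8 subregions it was 1 by DESeq2, 2 with no filter, 1 at Leiden resolution 0.5 (Kcnf1 in L2/3) and 0 to 6 when 1 section was left out, beside 0.232%, 0.896%, 0.52% and 0.276% to 5.4%. Over the whole section leaving out 1 section gave 0 to 7, beside 0.0% to 7.68%. For region by diet the count was 3 with no filter, and 0 to 4 when 1 section was left out, beside 1.25% and 0.0% to 2.44%. In each of these the highest count came without HF replicate 1, the shallowest section, and a lone remaining section is assumed to vary like the other diet's. The cause was not tested.

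The labels do not say that replicate numbers pair the sections. The deviations of same-numbered sections had a correlation of -0.165 over 14971 features. With 2 sections per diet, crossing the numbers only changes the sign of this value, so it cannot decide whether any sections were handled together. With a replicate block 1 subunit was called in the regions, Kcne2 in VS (adjusted p 0.0186), and 2 in the subregions, Kcnf1 in L2/3 (0.0302) and Kcnv1 in L2/3 (0.0289) and L4-6 (0.0111), beside 0.666% and 0.712% of all features. With the numbers crossed, a setting chosen after seeing the data, it was 4 and 1, beside 2.54% and 0.72%.

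Among the sign changes, Kcna1 in CA1 turned to 0.28 with thinned spots. Over the whole section Kcnh3 turned to 0.062 and Kcnk3 to 0.046 with thinned spots, and with library size alone Kcnh3 turned to 0.0017, Kcnk3 to 0.0012 and Kcnj10 to 5.7e-04. Leaving out 1 section gave -0.37 to 0.34 for Kcng4, -0.040 to 0.14 for Kcnh5, -0.12 to 0.089 for Kcnh3, -0.25 to 0.16 for Kcnc2, -0.079 to 0.18 for Kcnip4, -0.38 to 0.028 for Kcns2, -0.20 to 0.16 for Kcnk3, -0.23 to 0.13 for Kcnh4 and -0.16 to 0.12 for Kcnj10. The cause was not tested. At Leiden resolution 0.5, VS and OLF could not be fitted. Over areas 20 subunits of 4 to 597 UMIs were not tested.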
